A study of Mus musculus with 13 samples.

Results

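The genes described here are 37 genes of autophagy and of the lysosome, followed in mouse liver across a drug treatment and a weight-matched diet. They were chosen by name, and each was read from the probe set that names it alone, or from the brightest such probe set. On that rule 35 of the 37 had a value, all 35 lay above the limit for dim genes, and they are 35 of the 13308 genes tested. Optn and Bnip3l, receptors that bring damaged cargo and mitochondria to the autophagosome, had no such probe set and were dropped. Gabarap alone had a second probe set.

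Total RNA of liver came from male C57Bl/6J mice on 13 Affymetrix arrays. All mice were 6 weeks old when a 60% high fat diet began, and all ate it for 4 weeks before treatment. Treatment lasted 4 more weeks. In HFD (4 arrays) mice continued the diet without drug, and in CANA (4 arrays) they ate it with canagliflozin at 25 to 30 mg/kg. Those of the other 5 arrays had their calories restricted by 15 to 30%, so that body weight followed that of the drug group (CR). Thus every group had first been fed the high fat diet, and no group on a plain diet entered the comparisons. Canagliflozin inhibits SGLT2, a glucose transporter of the kidney tubule. Its gene Slc5a2 lay near the dim limit of 3.95 log2 units, with 4.30 ± 0.12 (SD, n = 4) for HFD, 4.20 ± 0.20 (n = 4) for CANA and 4.35 ± 0.21 (n = 5) for CR.

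Autophagy encloses cytoplasm, organelles and lipid droplets in a double membrane and delivers them to the lysosome for breakdown. A kinase complex starts the membrane, a lipid kinase marks it, ubiquitin-like enzymes attach LC3 and GABARAP proteins to it, and receptors tie cargo to those proteins. The liver is known for a strong rise of autophagy in fasting, restrained by mTORC1 when nutrients are plentiful, and the factors TFEB and TFE3 switch on lysosomal genes. Much of this control acts on proteins, which arrays of RNA do not measure.

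Levels are log2 values, differences are of group means on that scale, and a gene is called at a limma adjusted p under 0.05 over all genes tested. The arrays had medians of 4.07 to 4.13 and pairwise correlations of 0.985 to 0.992 across probe sets with 1 gene symbol. Precision is limited by how few arrays each group has. The labels number replicates but do not say that each array is a separate mouse, so a p-value here refers to the spread among arrays, which may be technical. Hepatocyte markers stood at 9.86 or higher on every array, with 11 of 11 above the dim limit, and of 5 bile duct cell markers with a probe set, 3 lay above it and Epcam and Cldn7 below. Sample descriptions hold a running number from 1 to 14, with no 7 among them and no stated meaning. Since the arrays were already known to differ by it, differences are also given within numbers 1 to 8 (7 arrays) and 9 to 14 (6 arrays). No member followed the running number past the threshold (smallest limma adjusted p = 0.257), and 1 of 35 had an unadjusted p under 0.05, against 11.9% of all genes. That member was Map1lc3b, with a slope of 0.03 per number. CANA replicate 2 had the highest of the 13 values for 11 of the 35 members (31.4%), against 11.6% of all genes, so differences without it are also given for some members.

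The first comparison asks what the drug did on top of the continued diet. No autophagy or lysosome gene passed the test in CANA against HFD. Map1lc3b and Ctsl lay farthest from zero, with CANA means 1.47-fold and 1.36-fold those of HFD. Of the 35 members, 17 lay above zero and 18 below, with a median of -0.02, and the median over all genes was -0.01. None was called, where 0.165% of all genes were, and the smallest adjusted p was 0.115. With the limit at 0.10 there was again none, against 0.421% of all genes. At an unadjusted p under 0.05 there were 4 members (11.4%), against 8.82% of all genes. These were Map1lc3b, Ctsl and Map1lc3a on the high side and Ulk2 on the low side. The arrays did not overlap for 3 members, Ctsl, Hexa and Atg16l1, which is 8.57% of the members against 4.90% of all genes. All 3 were higher in CANA, and 2.13% of all genes were higher without overlap. The direction was not set beforehand, so the share in either direction is the fairer one to set beside the members.

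**Figure D1:**
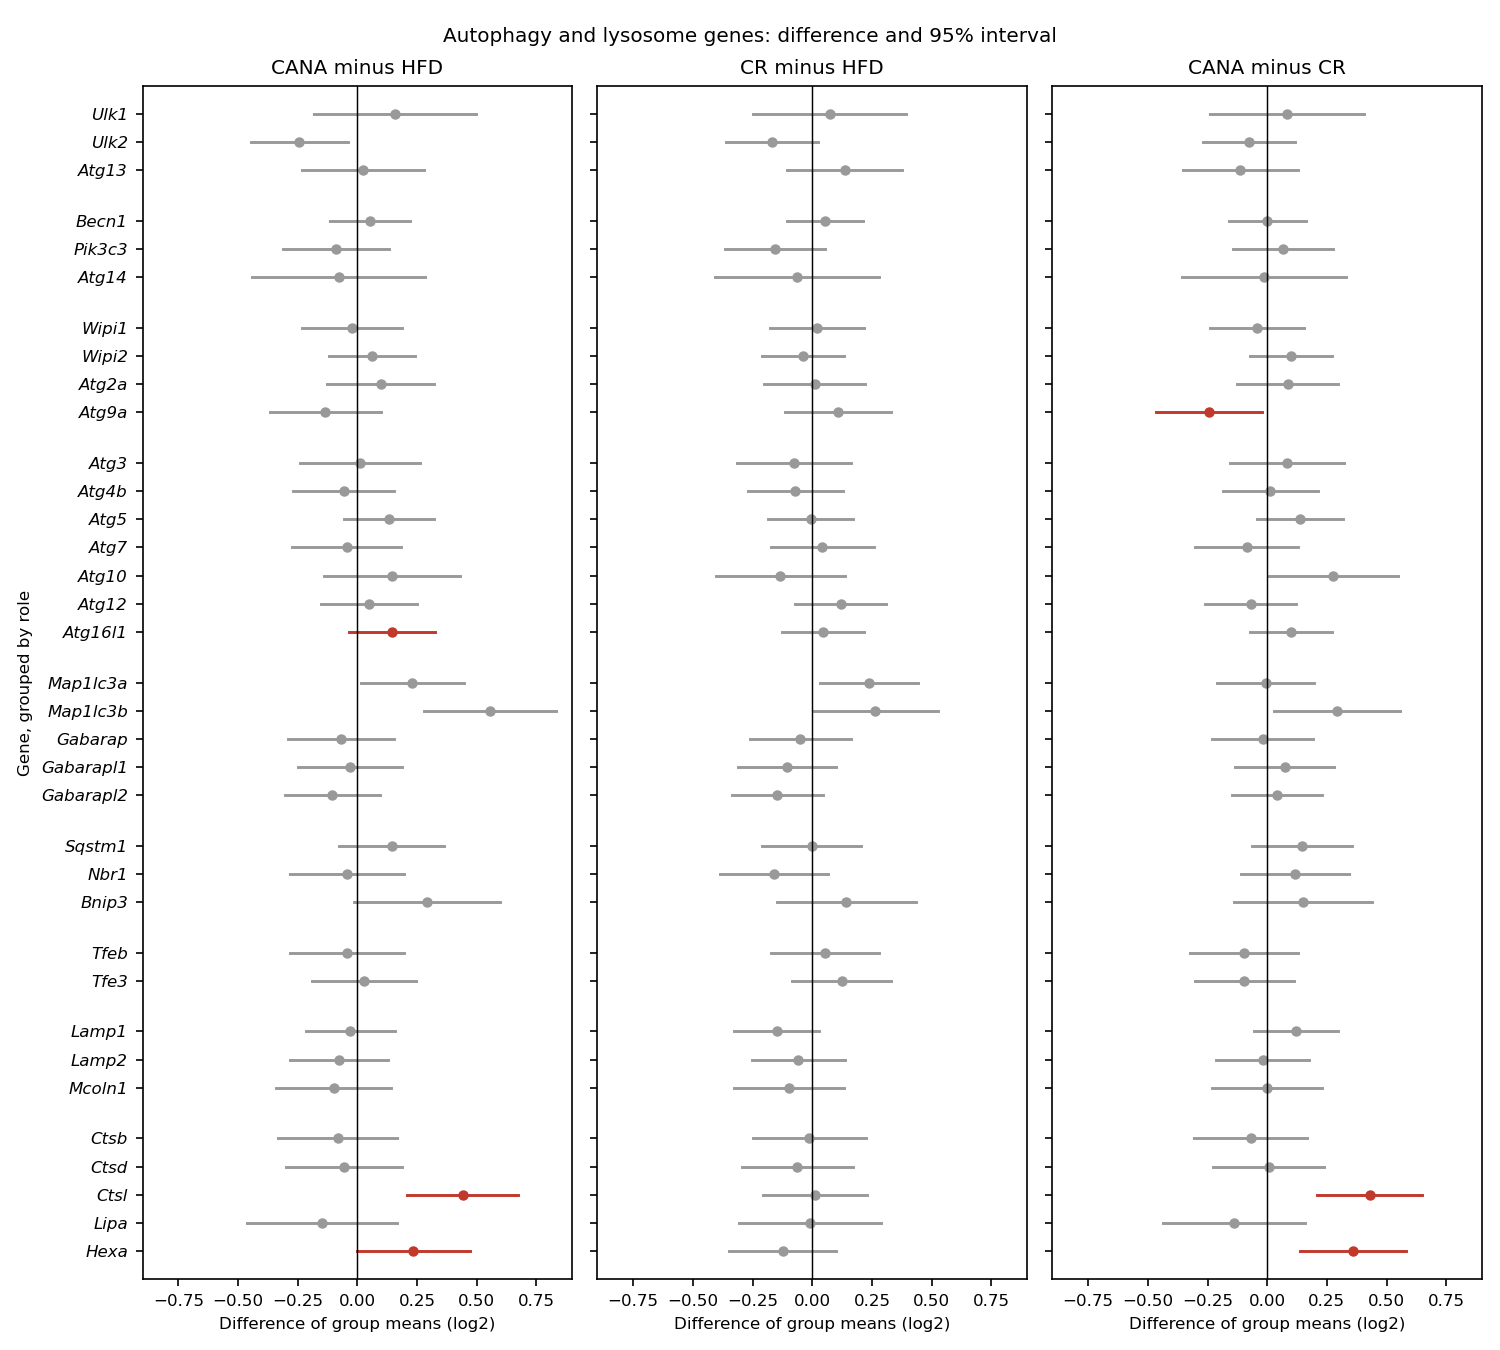
Differences of group means (log2) with 95% intervals for the 35 members, grouped by role, in CANA minus HFD, CR minus HFD and CANA minus CR. Coloured members are those whose arrays did not overlap (Atg16l1, Ctsl and Hexa, none, and Atg9a, Ctsl and Hexa); grey members overlapped, and most points lie within 0.2 of zero.

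Small intervals accompanied most of these differences. In CANA against HFD, 29 of 35 differences were under 0.2 in size, and 32 intervals lay inside a 1.5-fold change in either direction. The exceptions were Map1lc3b, Ctsl and Bnip3, and no member's interval reached 2-fold. The median size of a difference was 0.08 for the members and 0.10 for all genes. Replicates of a group varied with a median SD of 0.14 for the members and 0.17 for all genes.

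**Figure D2:**
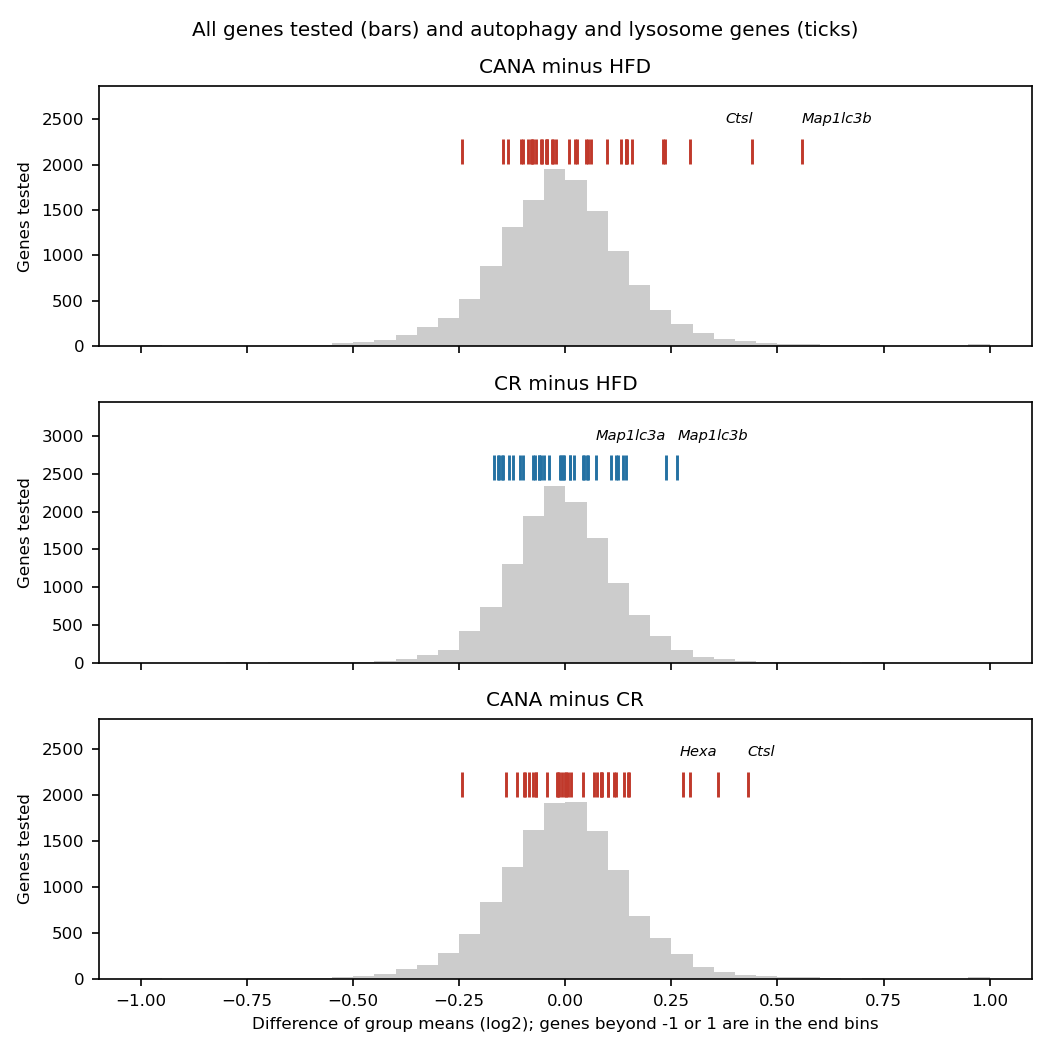
Differences of group means (log2, horizontal) for all 13308 genes tested (bars, number of genes) and for the 35 members (ticks) in each comparison. The ticks lie over the centre of the bars, with Map1lc3b at 0.56 and Ctsl at 0.44 farthest out in CANA minus HFD.

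The initiation kinases did not move together. Ulk2, a kinase that starts autophagosome formation, read 8.64, 8.45, 8.38 and 8.29 in HFD replicates 1 to 4. The CANA arrays read 8.31, 8.23, 8.10 and 8.14, and the CR arrays 8.27, 8.21, 8.43, 8.25 and 8.20. Most CANA arrays were thus below HFD, but the highest CANA array topped the lowest HFD array. The difference of CANA from HFD was -0.24 (SE 0.10, limma adjusted p = 0.452), with -0.28 within numbers 1 to 8 and -0.21 within 9 to 14. Ulk1, its close relative, was at 0.16 (SE 0.16), and Atg13, the adapter that binds both kinases, at 0.02. HFD replicate 2 was low for Ulk1, at 8.51, where the other HFD arrays lay between 9.18 and 9.30. Within the running-number sets Ulk1 was at 0.40 and -0.08.

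Genes of membrane marking and growth lay close to zero. The lipid kinase complex had Becn1 at 0.05, the catalytic subunit gene Pik3c3 at -0.09 and Atg14, its autophagy-specific subunit, at -0.08. Wipi1 and Wipi2, which bind the lipid the kinase makes, were at -0.02 and 0.06. Atg2a, a lipid transfer protein, was at 0.10. Atg9a, a lipid scramblase of the growing membrane, was at -0.13. None of these 7 had an unadjusted p under 0.05 in CANA against HFD.

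The conjugation enzymes lay between -0.06 and 0.15, with 5 of 7 above zero and none called. Atg16l1, which places the conjugation complex on the membrane, read 6.78, 6.83, 6.85 and 6.87 in HFD and 6.93, 7.09, 6.95 and 6.94 in CANA. Every CANA array was above every HFD array, by little. Its difference was 0.15 (SE 0.09, limma adjusted p = 0.680). Atg5, the partner of Atg16l1 in that complex, was at 0.13 and Atg10, an E2-like enzyme, at 0.14. Atg7, the E1-like enzyme, was at -0.04, the E2-like Atg3 at 0.01, the ubiquitin-like Atg12 at 0.05 and the protease gene Atg4b at -0.06.

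Within the LC3 and GABARAP family, whose proteins are fixed to the membrane, the means of both LC3 genes lay above HFD and those of the 3 GABARAP genes below, with none called. Map1lc3b read 9.46, 9.58, 9.88 and 9.95 in HFD replicates 1 to 4. The CANA arrays read 9.94, 10.46, 10.40 and 10.30. Apart from CANA replicate 1, which lay just under the highest HFD array, the CANA arrays were all higher. The means were 9.72 ± 0.24 and 10.27 ± 0.23 (SD, n = 4 each), a difference of 0.56 (SE 0.13, 95% interval 0.28 to 0.83, limma adjusted p = 0.115). The gene was called without CANA replicate 1 (0.67, limma adjusted p = 0.032) and with the running number as a covariate (0.59, limma adjusted p = 0.033). In no other alternative fit was the adjusted p under 0.0549. Its differences within numbers 1 to 8 and 9 to 14 were 0.68 and 0.43, and HFD arrays of the later set were the higher ones. Without CANA replicate 2 it was at 0.49 (limma adjusted p = 0.244).

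Map1lc3a, the other LC3 gene, read 6.12, 6.32, 6.11 and 6.38 in HFD and 6.50, 6.31, 6.47 and 6.57 in CANA. The groups overlapped through CANA replicate 2, the lowest of its group. The difference was 0.23 (SE 0.10, limma adjusted p = 0.530), with 0.18 and 0.28 within the running-number sets. Gabarap, Gabarapl1 and Gabarapl2 were at -0.07, -0.03 and -0.10, and the unused probe set of Gabarap gave -0.09. The difference between the LC3 and GABARAP genes in their response was not tested.

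Of the cargo receptors, Bnip3, a mitochondrial receptor that binds LC3, was the farthest from zero. It read 8.34, 8.59, 8.47 and 8.58 in HFD and 8.53, 8.96, 9.05 and 8.61 in CANA. CANA replicates 2 and 3 stood well above all HFD arrays, replicate 4 just above them, and replicate 1 among them. The difference was 0.29 (SE 0.14, limma adjusted p = 0.596), and 0.24 without CANA replicate 2. Sqstm1, the gene of the ubiquitin-binding receptor p62, was at 0.14, and Nbr1, a related receptor, at -0.04.

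The transcription factor genes of the lysosome lay near zero. Tfeb was at -0.04 (95% interval -0.28 to 0.19) and Tfe3 at 0.03 (95% interval -0.19 to 0.25). Tfeb was the dimmest of the members, with means of 4.82 in HFD and 4.78 in CANA against the dim limit of 3.95. Whether its low signal hid a change was not tested. The lysosomal membrane genes also lay near zero. Lamp1 and Lamp2, the main glycoproteins of that membrane, were at -0.03 and -0.08, and Mcoln1, its calcium channel, at -0.10.

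Among the 5 lysosomal hydrolases, the means of Ctsl and Hexa lay above HFD and those of Ctsb, Ctsd and Lipa below, with none called. Ctsl, a cysteine protease, read 10.21, 10.32, 10.15 and 10.12 in HFD and 10.46, 11.00, 10.62 and 10.48 in CANA. All CANA arrays lay above all HFD arrays, and replicate 2 was the highest. The means were 10.20 ± 0.09 and 10.64 ± 0.25 (SD, n = 4 each), a difference of 0.44 (SE 0.11, 95% interval 0.21 to 0.67, limma adjusted p = 0.153). It was 0.46 within numbers 1 to 8 and 0.42 within 9 to 14, and 0.32 without CANA replicate 2. Hexa, the alpha subunit of beta-hexosaminidase, which degrades the ganglioside GM2, read 7.71, 7.74, 7.69 and 7.63 in HFD. The CANA arrays read 7.87, 8.06, 7.86 and 7.92, again without overlap. The difference was 0.23 (SE 0.11, limma adjusted p = 0.568), with 0.24 and 0.23 within the sets, and 0.19 without CANA replicate 2.

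The other cathepsins lay slightly below zero, with Ctsb at -0.08 and Ctsd, an aspartic protease, at -0.06. Lipa, the acid lipase that clears cholesteryl esters and triglycerides in the lysosome, was at -0.15 (SE 0.15). Replicate 1 was the lowest Lipa array in both groups, at 10.11 in HFD and 9.89 in CANA.

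Macrophages are rich in lysosomes, and a liver extract holds them. Of 13 Kupffer cell and macrophage markers, 9 were above zero in CANA against HFD, with a median of 0.10 and none called. Their summed linear level ran from 1392 to 2516 over HFD arrays, 1638 to 2329 over CANA arrays and 1237 to 2155 over CR arrays, and no marker's mean lay below the dim limit. Fewer cells of a type and less RNA per cell cannot be told apart in such extracts, and the part of macrophages in the Ctsl and Hexa values was not tested.

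**Figure D3:**
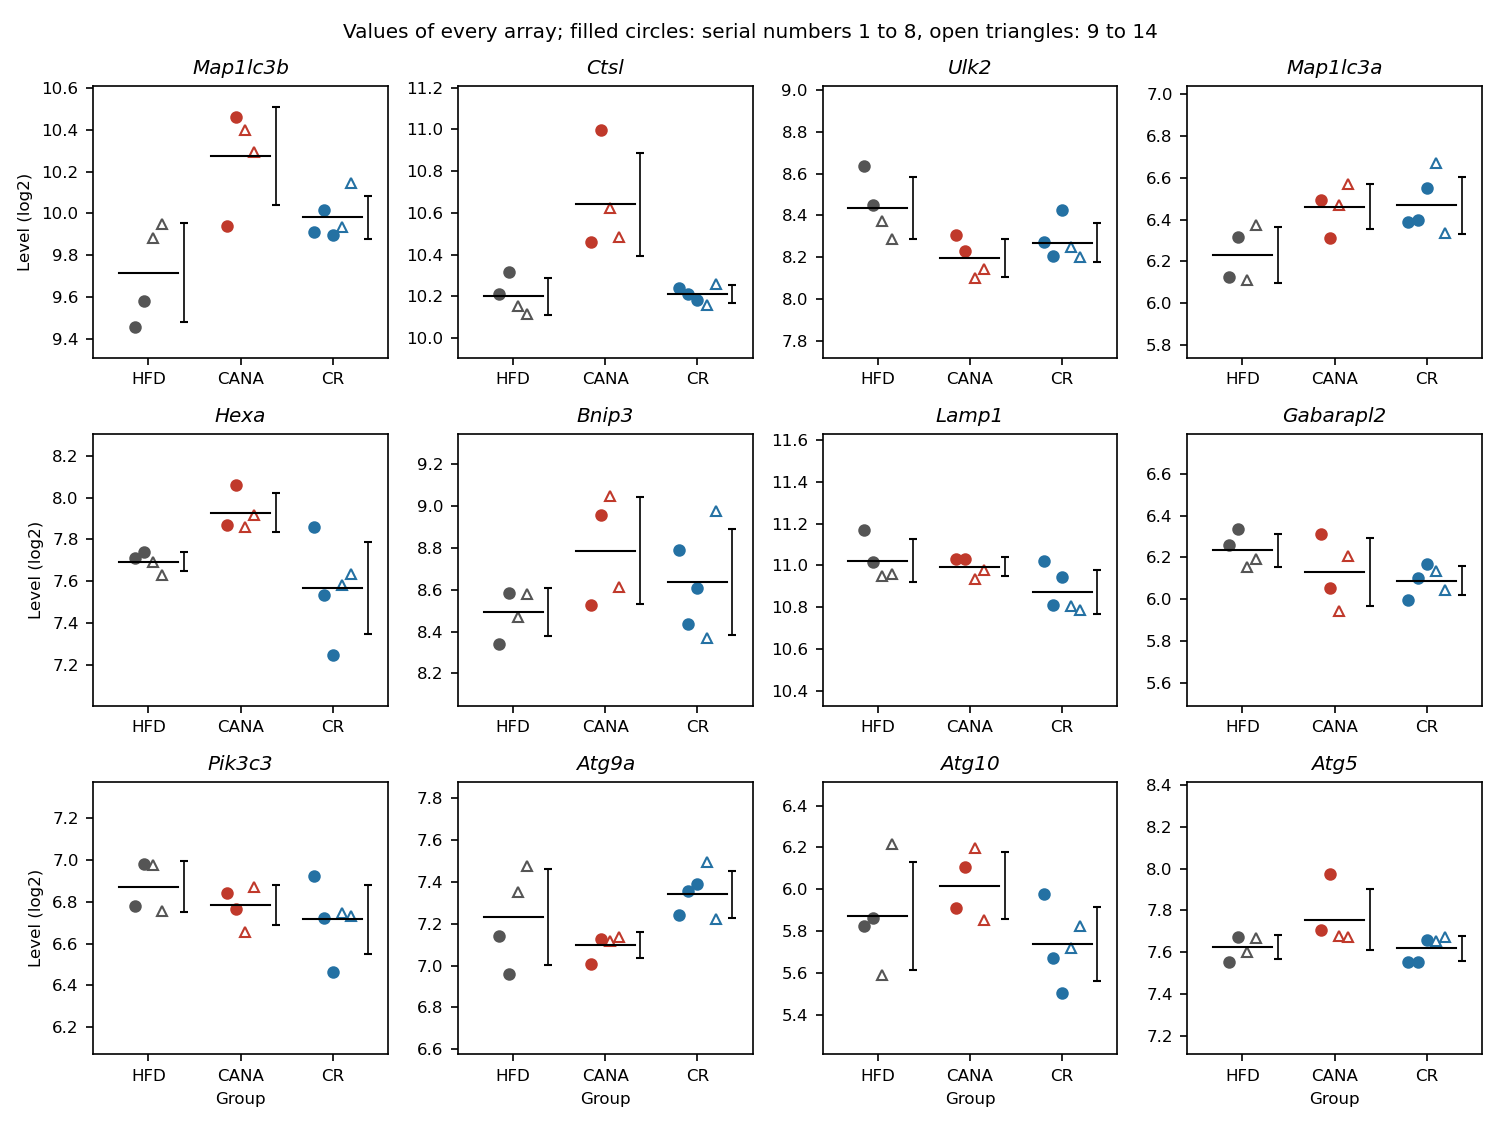
Levels (log2) of every array in HFD, CANA and CR for the 12 members with the smallest p-values, 6 per comparison; every panel spans the same range. Lines are group means and bars beside them SD. Ctsl in CANA stands apart from both other groups, and Hexa in CANA from HFD. For Hexa, CR replicate 1 lies just under the lowest CANA array. The Map1lc3b mean in CR lies between those of the other groups. None of these genes was called.

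The second comparison asks what weight matching by food restriction did without the drug. No member differed past the threshold in CR against HFD, and 15 lay above zero and 20 below. The median was -0.01, as over all genes (-0.01). The smallest adjusted p was 0.999, and no gene of the whole set was called (0%), nor with the limit at 0.10 (0%). At an unadjusted p under 0.05 there were 2 members, Map1lc3a and Map1lc3b (5.71%, against 3.74% of all genes). Both were higher in CR, and 1.73% of all genes were higher at such a p, a direction again not set beforehand. No member had arrays without overlap, against 1.17% of all genes. The range was -0.17 to 0.26, 33 of 35 differences were under 0.2, and all 35 intervals lay inside a 1.5-fold change.

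The LC3 genes lay farthest above zero in this comparison. In CR, Map1lc3b read 9.91, 10.01, 9.90, 9.94 and 10.15, with the lowest CR arrays inside the HFD range. Its mean of 9.98 ± 0.10 (SD, n = 5) was 0.26 above HFD (SE 0.12, limma adjusted p = 0.999). This rested more on the earlier arrays, with 0.42 within numbers 1 to 8 and 0.13 within 9 to 14. Map1lc3a read 6.39, 6.40, 6.55, 6.67 and 6.34 in CR, and the HFD replicate 4 lay among them. Its difference was 0.24 (SE 0.10, limma adjusted p = 0.999), with 0.23 and 0.26 within the sets. The difference from HFD in CANA was 0.56 for Map1lc3b and 0.23 for Map1lc3a. Both comparisons share the HFD arrays, so these values are not independent.

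On the low side, Lamp1 read 11.17, 11.01, 10.95 and 10.96 in HFD and 11.02, 10.81, 10.95, 10.80 and 10.79 in CR. CR replicate 1 lay inside the HFD range, replicate 3 just under it and the rest lower, and the difference was -0.15 (SE 0.08, limma adjusted p = 0.999). Gabarapl2 read 6.26, 6.33, 6.15 and 6.19 in HFD and 5.99, 6.10, 6.17, 6.14 and 6.04 in CR, where replicate 3 overlapped HFD. Its difference was -0.15 (SE 0.09). Pik3c3 read 6.78, 6.98, 6.97 and 6.76 in HFD and 6.92, 6.72, 6.46, 6.75 and 6.73 in CR, with replicate 1 inside the HFD range and replicate 3 lowest. Its difference was -0.16 (SE 0.10), and -0.093 without CR replicate 3. Ulk2 was at -0.17 (SE 0.09), and at -0.10 without HFD replicate 1. These genes all had a limma adjusted p of 0.999.

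Hydrolase means lay near HFD in the restricted mice. Ctsl read 10.24, 10.21, 10.18, 10.16 and 10.26 in CR, which is a mean of 10.21 ± 0.04 (SD, n = 5) and lies within the HFD arrays. Its difference from HFD was 0.01 (95% interval -0.21 to 0.23). Hexa was at -0.12, Ctsd at -0.06, and Ctsb and Lipa both at -0.01. Tfeb and Tfe3 were at 0.05 and 0.12, and Sqstm1 was at -0.00 (95% interval -0.21 to 0.21).

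The third comparison sets the drug against the weight-matched diet directly, and here the members again held no called gene. Of 35 members, 20 lay above zero and 15 below, with a median of 0.01 against -0.0037 for all genes. The smallest adjusted p was 0.171, where 0.150% of all genes were called (0.255% with the limit at 0.10, again with no member). At an unadjusted p under 0.05 there were 5 members (14.3%, against 8.43% of all genes), namely Ctsl, Hexa, Map1lc3b and Atg10 higher and Atg9a lower. The arrays did not overlap for 3 of them, Ctsl, Hexa and Atg9a (8.57%, against 2.93% of all genes). All intervals but that of Ctsl lay inside a 1.5-fold change.

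Ctsl was farthest from zero in CANA against CR, with means 1.35-fold apart (0.43, SE 0.10, 95% interval 0.21 to 0.65, limma adjusted p = 0.171). The lowest CANA array, at 10.46, was above the highest CR array, at 10.26. Its differences were 0.52 within numbers 1 to 8 and 0.34 within 9 to 14, and 0.31 without CANA replicate 2. Hexa read 7.86, 7.53, 7.24, 7.58 and 7.63 in CR, where replicate 1 lay just under the lowest CANA array and replicate 3 was lowest. The CANA mean was 7.93 ± 0.09 (SD, n = 4) and the CR mean 7.57 ± 0.22 (SD, n = 5), a difference of 0.36 (SE 0.11, limma adjusted p = 0.293). Of the macrophage markers, 11 of 13 were above zero in this comparison, with a median of 0.16 and none called, and their part was not tested.

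The Map1lc3b mean in CANA was 0.29 above CR (SE 0.12, limma adjusted p = 0.544), with 0.26 and 0.31 within the sets. CANA replicate 1, at 9.94, lay among the CR arrays. Map1lc3a differed little between CANA and CR, by -0.01 (95% interval -0.21 to 0.20).

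The mean of the membrane scramblase gene Atg9a lay below CR in CANA, without being called. It read 7.01, 7.13, 7.12 and 7.14 in CANA, 7.24, 7.35, 7.39, 7.49 and 7.22 in CR, and 7.14, 6.96, 7.35 and 7.48 in HFD. The CANA arrays lay below all CR arrays, and the HFD arrays spanned both. The difference of CANA from CR was -0.24 (SE 0.10, limma adjusted p = 0.552). Atg10, at 5.91, 6.10, 6.20 and 5.85 in CANA and 5.98, 5.67, 5.50, 5.72 and 5.82 in CR, differed by 0.28 (SE 0.13, limma adjusted p = 0.579). Only CR replicate 1 reached into the CANA range. Atg5 read 7.71, 7.97, 7.68 and 7.67 in CANA and 7.55, 7.55, 7.66, 7.66 and 7.67 in CR. CANA replicate 2 carried most of its difference of 0.14, which was 0.25 within numbers 1 to 8 and 0.01 within 9 to 14, and 0.07 without that array. All 3 cargo receptors were above zero, at 0.15 for Sqstm1 and Bnip3 and 0.12 for Nbr1, with none called.

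**Figure D4:**
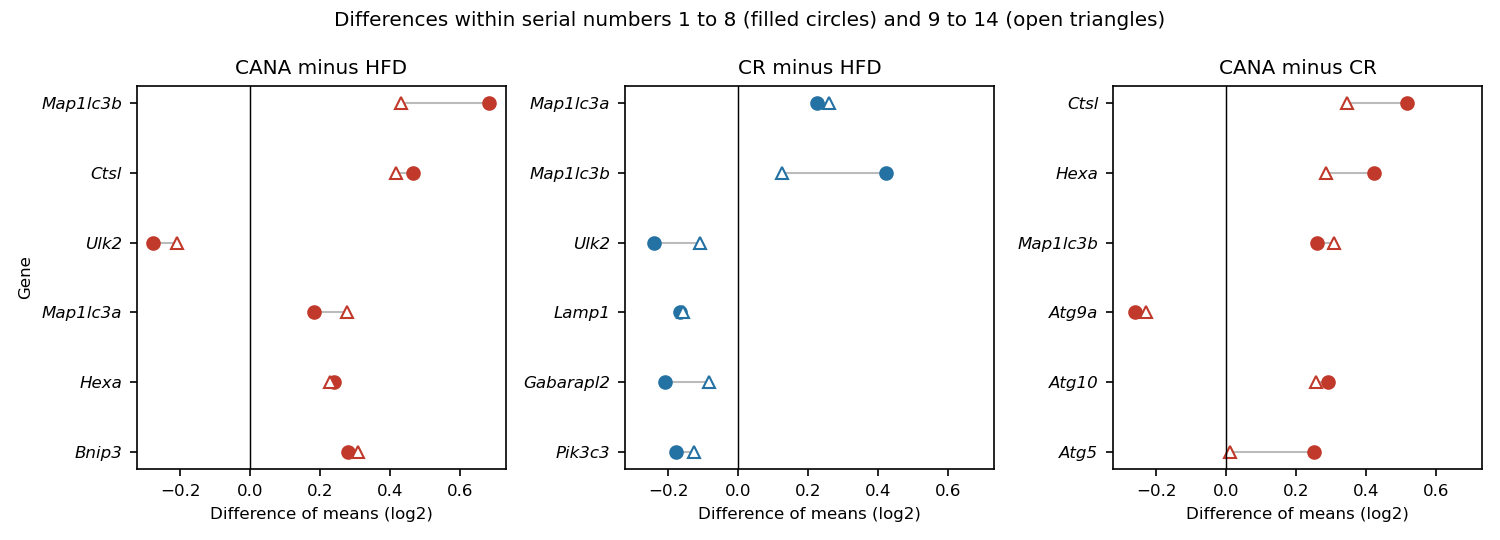
Differences of means (log2) within running numbers 1 to 8 (filled circles) and 9 to 14 (open triangles) for the 6 members with the smallest p-values in each comparison. Every pair keeps its sign, but the members were picked for small p on these same arrays, which favours matching signs. Map1lc3b in CR minus HFD goes from 0.42 to 0.13 and Atg5 in CANA minus CR from 0.25 to 0.01.

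Over all 35 members, the sign was the same in both running-number sets for 20 in CANA against HFD, 24 in CR against HFD and 20 in CANA against CR.

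Some members share a promoter motif, which the choice of genes did not use. Lysosomal genes are known to carry E-boxes that TFEB and TFE3 bind. RefSeq promoter windows of GRCm38.p6, from 250 bases before to 50 after a start, were found for 30 of the 37 members. The only E-box core sought, CACGTG, which reads the same on both strands, was present in 9 of them (30.0%), against 8.09% of 27025 genes. The longer GTCACGTG, sought on both strands and always overlapping the shorter motif, was in 6 (20.0%), against 2.55%. The FoxO-type GTAAACA, on either strand, was in none of the 30 (4.05% of genes). Shown here is the sequence round 1 E-box in 7 of the 9 genes, 30 bases each, 5′ to 3′, with CACGTG in capitals, because the members with the longer motif can be set against Ctsl, whose E-box lacks it. They lie at chr8:3500462-3500491 (plus strand) for Mcoln1, chr8:13159121-13159150 (plus strand) for Lamp1, chr7:142387908-142387937 (minus strand) for Ctsd, chr16:45158746-45158775 (plus strand) for Atg3 and chr14:47568418-47568447 (minus strand) for Atg14, all with the longer motif. Those of Bnip3 at chr7:138909597-138909626 (minus strand) and Ctsl at chr13:64370739-64370768 (minus strand) have the short motif alone. The Ctsl window belongs to a start 252 bases inside the annotated gene. The windows of Atg5 and Atg7, not shown, belong to starts 17 and 27969 bases inside theirs.
Mcoln1: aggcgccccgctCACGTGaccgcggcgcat
Lamp1: gatgccgactggCACGTGaccacatcacgt
Ctsd: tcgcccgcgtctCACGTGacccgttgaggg
Atg3: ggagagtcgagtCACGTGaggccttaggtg
Atg14: aaaacaaaatccCACGTGactggccctgag
Bnip3: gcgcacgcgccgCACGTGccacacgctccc
Ctsl: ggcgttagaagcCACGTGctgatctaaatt

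The 6 members with GTCACGTG, which are those 5 and Atg7, had CANA minus HFD differences of -0.10 to 0.01, with a median of -0.05. The 23 other tested members with a window ran from -0.24 to 0.56, with a median of 0.02. Split by the short CACGTG instead, the medians were -0.029 for the 9 members with it and -0.027 for the 20 without. In CR against HFD the 6 ran from -0.15 to 0.04 (median -0.07) and the 23 others from -0.17 to 0.26 (median -0.01). In CANA against CR the medians were 0.0031 for the 6 and 0.074 for the 23. A match is a description of these letters and not of binding. The members farthest above zero in CANA without CACGTG in their window were Map1lc3b and, among hydrolases, Hexa. Their 250 bases before the start, at chr8:121590188-121590437 and chr9:59539290-59539539 (both plus strand), are 69.6% and 51.6% G or C and are shown for that contrast.
Map1lc3b: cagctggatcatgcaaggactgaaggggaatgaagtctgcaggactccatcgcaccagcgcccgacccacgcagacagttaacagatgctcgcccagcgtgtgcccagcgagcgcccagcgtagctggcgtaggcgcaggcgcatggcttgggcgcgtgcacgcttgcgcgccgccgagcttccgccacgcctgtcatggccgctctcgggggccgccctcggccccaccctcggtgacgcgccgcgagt
Hexa: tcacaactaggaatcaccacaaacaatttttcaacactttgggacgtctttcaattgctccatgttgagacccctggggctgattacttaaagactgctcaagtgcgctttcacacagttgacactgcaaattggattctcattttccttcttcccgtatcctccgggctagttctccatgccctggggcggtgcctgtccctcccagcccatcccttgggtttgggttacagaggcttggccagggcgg

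The wider pathway was read from 8 further lists with 164 tested genes. None was called in any comparison, and at an unadjusted p under 0.05 there were 15 in CANA against HFD (9.15%, near the 8.82% of all genes), 8 in CR against HFD (4.88%, against 3.74% of all genes) and 11 in CANA against CR (6.71%, against 8.43%). Gm2a, the cofactor that hands GM2 to the enzyme made of Hexa, lay opposite to Hexa. Its mean was 9.84 ± 0.10 (SD, n = 4) for HFD, 9.47 ± 0.20 (n = 4) for CANA and 9.84 ± 0.12 (n = 5) for CR. Its difference in CANA was -0.37 from HFD (SE 0.11, limma adjusted p = 0.248) and -0.37 from CR (SE 0.10, limma adjusted p = 0.274), in both cases without overlap of the arrays. Of the 34 hydrolases and cofactors in that list, 14 were above zero against HFD, with a median of -0.01. All 16 proton pump subunits lay between -0.13 and 0.10 in CANA against HFD, and 5 were above zero.

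Autophagosome fusion genes were mostly below zero in CANA against HFD, at 11 of 13 with a median of -0.14, and none was called. Above zero were 2 of the 13, against 46.1% of all genes. Of the 8 lists, this one had the median farthest from zero. In CR against HFD its median was -0.03, with 9 of 13 below zero, and in CANA against CR it was -0.10, with 8 of 13 below zero. In CANA against HFD, Snap29, a fusion SNARE, was at -0.28 and Vps11, a core subunit of the tethering complex, at -0.24 (limma adjusted p = 0.446 and 0.480). Vamp8, of the same list, lay the other way at 0.19 (limma adjusted p = 0.628). In the other core machinery, 7 of 18 were above zero. Rubcn, an inhibitor of autophagosome maturation, was at -0.33 and Tmem41b, a scramblase of the endoplasmic reticulum, at -0.29 (limma adjusted p = 0.328 and 0.331). Of the cargo receptors beyond the members, Retreg1, which directs the endoplasmic reticulum to autophagy, had a CANA mean 1.86-fold that of HFD (0.89, SE 0.25, limma adjusted p = 0.223) and a CR mean 1.46-fold (0.55, SE 0.24, limma adjusted p = 0.999).

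Of 33 genes of mTORC1 and nutrient sensing, 14 were above zero in CANA against HFD, with a median of -0.02. Ddit4, an inhibitor of mTORC1, was at 0.89 in CANA and 0.82 in CR against HFD (SE 0.33 and 0.31, limma adjusted p = 0.404 and 0.999). Fnip2, a partner of folliculin at the lysosome, was at -0.46 and -0.30 (limma adjusted p = 0.286 and 0.999). Both comparisons use the same HFD arrays. Among 16 transcriptional regulators, Ppargc1a, a coactivator of mitochondrial and fasting genes, was at 7.80 ± 0.60 for CANA, 6.43 ± 0.24 for HFD and 6.71 ± 0.43 for CR (SD, n = 4, 4 and 5). Its CANA arrays lay above all HFD arrays, with a difference of 1.37 (SE 0.26, limma adjusted p = 0.0514), and 1.09 above CR with overlap (SE 0.25, limma adjusted p = 0.144). Among other lysosomal membrane genes, Mfsd8, a lysosomal channel, was at -0.32 in CANA against HFD without overlap, and the amino acid transporter gene Slc36a1 at -0.31 (limma adjusted p = 0.443 and 0.468).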

How the data were processed

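Total RNA (250 ng) was labelled by the WT Plus protocol for Affymetrix mouse gene arrays, per the labels' protocols. The deposited log2 values were computed by the authors with RMA in Affymetrix Expression Console, per the submitters' processing notes, which give no versions. They hold 41345 probe sets on 13 arrays, and RMA puts all arrays on 1 distribution, so a shift of the whole transcriptome cannot be seen. No detection calls were used.

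Probe sets were named through the platform annotation, updated by Entrez identifier to RefSeq (23328 of 23521 with exactly 1 symbol). Of 22180 genes, the brightest probe set was kept, and the 13308 with a mean at or above the 40th percentile (3.95) were tested. A single limma 3.58.1 fit (R 4.3.3) to the 13 arrays, without covariates, gave all differences (10 residual and 5.71 prior degrees of freedom), two-sided, adjusted by Benjamini-Hochberg over all genes tested. All adjusted p-values are of limma, and intervals are 95%. The fit was checked on simulated data, with a minimum recovery required only for changes larger than any member difference.

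Members and lists were chosen with earlier results of these data known. Array values are given for the 6 members with the smallest p of each comparison, and for Atg16l1, added after its values were seen because its arrays did not overlap. From the other lists, up to 3 genes with the smallest p per comparison were named. Alternatives were filters, normalization, centring, variance models, array weights, probe sets, the arrays fitted, the replicate number as a block, the running number, and leaving out each array. Same-numbered arrays were not treated as pairs. Their deviations correlated at -0.15 to 0.30, and most, but not all, correlated best with the same number in the other group. Whether the numbers mark pairs was not tested. By running number, CANA and HFD replicates 3 (9 and 10) stand beside CR replicate 4 (11). CANA and HFD replicates 4 (12 and 13) stand beside CR replicate 5 (14), and CR replicate 3 has the number 8. A fit with the replicate number as a block is given below. That block does not follow the running order for these CR arrays, and a block that does was not fitted.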

Additional observations from a re-analysis of the deposited data

Results flagged for a closer look

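In 10 of 105 sets of arrays (35 members in 3 groups), 1 array stood far from the others of its group, by Dixon's 95% limit on the gap to its nearest neighbour. Chance gives about 1 in 20 for a single set. The 105 sets share the same 13 arrays and are not independent. The share over all genes is not given, so whether the count is particular to the members cannot be said. Ulk1 stood low in HFD replicate 2, at 8.51 with the nearest at 9.18. Lipa stood low in replicate 1 of both HFD (10.11) and CANA (9.89). CANA replicate 1 was also low for Atg9a, at 7.01. CANA replicate 2 stood high for Atg5 (7.97) and Atg16l1 (7.09). Among the CR arrays, replicate 3 was low for Atg3 (8.36) and Lamp2 (10.48), replicate 1 for Wipi2 (7.34) and replicate 4 for Gabarapl1 (9.69). The cause was not tested.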

How the results depend on the processing

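Over 27 alternative fits per comparison, and at an adjusted p under 0.10, no member was called in CR against HFD or CANA against CR. In CANA against HFD, 1 was called with the running number as a covariate, and 0 to 1 when each array was left out in turn; the gene was Map1lc3b both times (1 without CANA replicate 1). No given difference of the 6 members per comparison turned its sign, which their choice by small p on the same arrays favours. The median of the members in CANA against HFD was 0.039 within running numbers 1 to 8 and -0.072 within 9 to 14, and -0.032 to 0.016 with an array left out. In CANA against CR it was -0.0059 to 0.061 with an array left out (the highest without CR replicate 1), and in CR against HFD -0.028 to -0.0040. The cause was not tested. Centring turned the sign of Atg5 and Sqstm1 in CR against HFD and of Mcoln1 in CANA against CR, all near zero, and quantile normalization that of Atg5 and Becn1. With the replicate number as a block the count of called members was 0 in each comparison (smallest limma adjusted p = 0.101, 0.994 and 0.162). Most arrays, but not all, correlated best with their own number. Fits within a running-number set hold 2 or 3 arrays a group, so they show values more than calls.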

Other observations

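The probe set named for both Bnip3l and its pseudogene Bnip3l-ps, which was left out above, had means of 9.05 ± 0.10 (SD, n = 4) for HFD, 9.05 ± 0.16 (n = 4) for CANA and 9.07 ± 0.07 (n = 5) for CR. Its signal cannot be split between the genes.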
